A study of Caenorhabditis elegans with 2 samples.

Results

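The genes described here are 10 axon guidance and outgrowth genes of Caenorhabditis elegans, examined for candidate binding regions of the transcription factor UNC-30. They are unc-6, slt-1, unc-129, unc-40, unc-5, sax-3, vab-1, unc-34, unc-53 and unc-76, taken by name from the 19973 protein-coding genes on the nuclear chromosomes. For each, every candidate region was collected whose summit lay between 5000 bp upstream of the annotated 5′ end and the 3′ end, a span called the window here. The measurement was chromatin immunoprecipitation followed by sequencing (ChIP-seq) on whole first-stage (L1) larvae of both sexes, with age recorded as unknown. Both libraries, biological replicates 1 and 2, came from strain OP395. In this strain the transgene wgIs395 expresses UNC-30 with GFP-FLAG at the C terminus, and unc-119 on chromosome III has the tm4063 mutation. The labels give the antibody of both libraries as unc-30. The promoter that drives the tagged protein is not stated in the labels. With 1 group of 2 libraries there is no other condition to test against, so the values below are descriptions and no p-value is given. In whole larvae, strong binding in few cells and weak binding in many cannot be told apart.

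Axons are steered by secreted ligands that act on receptors at the growth cone, which signal to proteins of the actin and microtubule cytoskeleton. In the worm, netrin (UNC-6) from ventral cells guides axons along the dorsal-ventral axis through the receptors UNC-40 and UNC-5, while Slit (SLT-1) acts through the Robo receptor SAX-3. UNC-30 is a Pitx-type homeodomain protein needed for the identity of D-type GABA motor neurons, whose commissures grow dorsally along this axis. Homeodomains of its class bind the core sequence TAATCC.

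All 10 genes had candidate regions, and none had a peak that passed the authors' reproducibility threshold. The pooled candidate list, made by the authors from both replicates and holding background as well as peaks, placed 68 of its 30000 regions in the 10 windows. Across all protein-coding genes, 83.1% had a pooled region in the equivalent window and 1.18% had a thresholded peak, so neither count sets the 10 genes apart. The highest region at any of them, in an intron of unc-76, had a signal of 37.1, where signal is the authors' measure of peak height on a scale not given in the sources used here. The lowest thresholded peak had a signal of 39.2. The next highest regions were in introns of unc-5 (34.8) and unc-53 (26.0). These 2 regions, with a weaker one in sax-3 and another in unc-76, were the 4 that held TAATCC within 100 bp of the summit.

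The TAATCC copies in unc-5, sax-3 and unc-76 are shown because the core sequence and a pooled summit lie together there, followed by the copies in the regions of unc-25. That gene encodes glutamic acid decarboxylase and is a known target of UNC-30. Each line gives 30 bases of ce11 (WBcel235), 5′ to 3′, on the strand on which TAATCC reads forward, with the core in capitals.
unc-5, chrIV:5519203-5519232, plus strand: tggaacaactttTAATCCcgaagacacatt
sax-3, chrX:3460074-3460103, minus strand: tgtatgttttttTAATCCagcgaaaaaaat
unc-76, chrV:15078220-15078249, plus strand: tattccaaaaacTAATCCcaagcaacacca
unc-25 upstream, chrIII:12942532-12942561, minus strand: ggggcgtgactaTAATCCcaatgagcaatt
unc-25 upstream, chrIII:12942582-12942611, plus strand: actgagccacagTAATCCttgggggcgggg
unc-25 intron, chrIII:12945095-12945124, minus strand: taagcctaagctTAATCCttcccctcaaat
The copies shown at the guidance genes lay in introns, whereas 2 of the unc-25 copies lay just upstream of that gene. The copy in unc-5 was 55 bp from its summit, that in sax-3 82 bp and that in unc-76 95 bp. The copy in unc-53, which is not shown, was closer, within 50 bp of its summit. Of the unc-25 copies, those upstream were 8 and 58 bp from their summit and the intronic one 21 bp from its own.

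The highest regions of unc-76 and unc-5 are shown as the 201 bases centred on the summit, each on the strand of its gene, because they have the highest signals of the 10 genes. Capitals mark the reverse complement of TAATCC in the unc-5 window. In the unc-76 window, which has no TAATCC, they mark the reverse complement of the shorter core TAATC. Of its bases, 49 are coding, at the edge of an exon.
unc-76 highest region, chrV:15076784-15076984, plus strand: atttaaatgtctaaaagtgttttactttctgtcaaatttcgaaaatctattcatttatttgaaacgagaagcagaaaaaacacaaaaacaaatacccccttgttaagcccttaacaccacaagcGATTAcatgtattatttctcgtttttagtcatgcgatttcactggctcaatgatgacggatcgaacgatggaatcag
unc-5 highest region, chrIV:5519175-5519375, minus strand: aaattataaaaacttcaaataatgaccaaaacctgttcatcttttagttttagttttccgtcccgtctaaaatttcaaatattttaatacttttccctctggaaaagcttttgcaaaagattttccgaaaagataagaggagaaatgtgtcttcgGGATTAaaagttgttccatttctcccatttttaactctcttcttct
The G+C content was 33.8% in the unc-76 window and 30.3% in the unc-5 window. The median over the 68 regions was 32.3%, and over all pooled regions 31.8%.

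**Figure D1:**
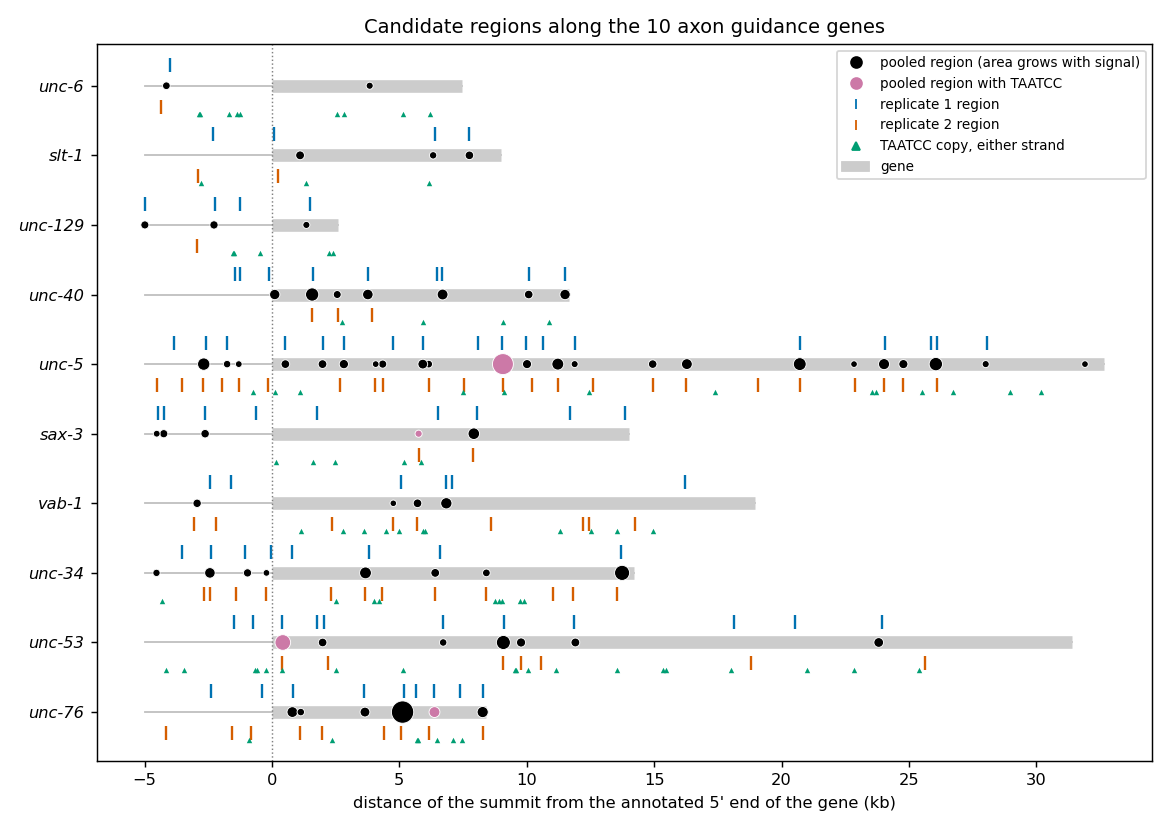
Candidate regions along the 10 genes, by distance of the summit from the annotated 5′ end in kb. Dots are the 68 pooled regions with an area that grows with signal (pink where TAATCC lies within 100 bp), blue and orange ticks are the regions of replicates 1 and 2, green triangles are all 85 copies of TAATCC, and grey bars are the genes. The largest dots are in unc-76, unc-5 and unc-53, and 54 of the 68 dots lie inside the genes.

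The 3 ligand genes had 2 or 3 pooled regions each, against a median of 2 over all protein-coding genes, and none of these regions was among the 10000 highest. unc-6, which encodes netrin (X, 6889674 to 6897147, plus strand), had 2 pooled regions, the fewest of the 10 genes, and 1 region in each replicate's own list. The higher one (signal 12.7, rank 20408) lay 4147 bp upstream of unc-6 but 250 bp upstream of F41C6.7, whose 5′ end was the nearest. The other (signal 11.7, rank 25021) lay in an intron. Neither had a summit of either replicate within 100 bp. The replicates' own regions were both upstream of the gene, at rank 17940 (signal 7.99) in replicate 1 and rank 23447 (signal 7.22) in replicate 2. Both shared bases with the higher pooled region, with summits 161 bp (replicate 1) and 228 bp (replicate 2) from its summit. Its window held 9 copies of TAATCC, and none was within 100 bp of a pooled summit.

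slt-1, the Slit gene (X, 14674328 to 14683324, plus strand), had 3 pooled regions with signals of 12.2, 14.3 and 14.6. All were in introns, and the highest, of rank 13808, lay 1101 bp downstream of the 5′ end with no replicate summit within 100 bp. The other regions matched replicate 1 alone, at ranks 11944 and 27421. The highest region of each replicate lay upstream of slt-1 and had no pooled counterpart. In replicate 1 it was 2322 bp upstream (signal 10.4, rank 8069), and in replicate 2 it was 2890 bp upstream (signal 8.98, rank 13586).

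unc-129 (IV, 9002839 to 9005410, minus strand) encodes a ligand of the TGF-β family that takes part in dorsal guidance of motor axons. Its 3 pooled regions had signals of 11.7, 13.4 and 13.7. The highest (rank 16677) lay 2278 bp upstream and ranked 23405 in replicate 1, with no match in replicate 2. That of signal 13.4 lay 4991 bp upstream, just inside the limit of the window, and 183 bp upstream of C53D6.11. It ranked 1684 in replicate 1, with a signal of 14.8, and had no match in replicate 2. The only region of replicate 2 in this window lay 2962 bp upstream (signal 8.30, rank 16918), 684 bp from the nearest pooled summit. None of the pooled regions of the 3 ligand genes had a summit of both replicates within 100 bp, and none held TAATCC.

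Among the receptor genes, unc-5 stood out in number. unc-5 (IV, 5495664 to 5528338, minus strand), which encodes the netrin receptor for growth away from the ligand, had 23 pooled regions, of which 20 were in introns and 3 upstream. Replicate 1's own list had 18 regions in this window and replicate 2's had 23. The highest pooled region (IV, 5519097 to 5519452) lay 9063 bp downstream of the 5′ end and 3010 bp upstream of an internal annotated transcript start. Its signal was 34.8 (rank 197) in the pooled list, 18.7 (rank 495) in replicate 1 and 9.70 (rank 10702) in replicate 2. It was thus strong in replicate 1 and ordinary in replicate 2. The TAATCC copy was within 100 bp of the pooled summit and of replicate 2's summit, 5 bp from the pooled one. Replicate 1's summit lay 54 bp from the pooled one and had no TAATCC within 100 bp.

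The next 3 unc-5 regions by pooled signal ranked higher in replicate 2 than in replicate 1. The region 26057 bp downstream of the 5′ end and 339 bp upstream of an internal transcript start had a pooled signal of 22.2 (rank 2176). It ranked 29715 in replicate 1, near the end of that list, and 2296 in replicate 2. Replicate 1 also had another region that shared bases with it (summit 196 bp away, rank 15017). A region 20715 bp downstream (signal 21.3, rank 2677) ranked 20400 in replicate 1 and 9576 in replicate 2. The strongest region upstream of the gene, at 2681 bp (signal 20.5, rank 3311), ranked 18753 in replicate 1 and 4129 in replicate 2. The remaining 19 unc-5 regions had signals from 11.0 to 19.8.

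unc-40 (I, 5679837 to 5691503, minus strand), the gene of the DCC-type netrin receptor, had 7 pooled regions, all inside the gene. The highest (I, 5689750 to 5690105) lay in an intron, 1575 bp downstream of the 5′ end. Its signal was 22.0 (rank 2280) in the pooled list, 13.0 (rank 3236) in replicate 1 and 10.4 (rank 8374) in replicate 2. A region 107 bp downstream of the 5′ end (signal 17.1, rank 7689) had no summit of either replicate within 100 bp. Replicate 1 had a region that shared bases with it (summit 211 bp away, rank 14785). unc-40 had the second highest median signal of the 10 genes, 17.2, after 17.9 in unc-76. Replicate 1's list had 9 regions in the window and replicate 2's had 3, the highest of which lay 3906 bp downstream (signal 10.9, rank 7152).

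sax-3 (X, 3451908 to 3465927, minus strand), the Robo gene, had 5 pooled regions. The highest (signal 19.2, rank 4610) lay in an intron 7921 bp downstream of the 5′ end, and matched replicate 2 (rank 3481). Replicate 1 had no summit within 100 bp of it, but a region that shared bases with it (summit 131 bp away, rank 28019). The region with TAATCC, 5754 bp downstream, was weak, with a signal of 11.8 and rank 24428, and it too matched replicate 2 alone (rank 14372). The 3 regions upstream of the gene matched replicate 1 alone, and the strongest of them in that list, 2626 bp upstream, had a signal of 12.4 (rank 4036).

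vab-1 (II, 4572000 to 4590970, plus strand), which encodes the Eph receptor tyrosine kinase, had 4 pooled regions over a window of 24.0 kb. The highest (signal 18.7, rank 5230) was intronic, 6842 bp downstream of the 5′ end, with rank 3006 in replicate 1 and no match in replicate 2. The highest region of replicate 2 lay elsewhere, 2352 bp downstream (signal 9.24, rank 12497), with the nearest pooled summit 2409 bp away. None of its pooled regions had a summit of both replicates within 100 bp or held TAATCC, although the window had 11 copies of that sequence.

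The genes of intracellular proteins held the highest region of all. unc-76 (V, 15071760 to 15080152, plus strand), of the FEZ family and needed for axon outgrowth and bundling, had 6 pooled regions within 8.39 kb of gene. The highest (V, 15076706 to 15077061) lay 5124 bp downstream of the annotated 5′ end and 716 bp downstream of an internal transcript start. Its signal was 37.1 (rank 151) in the pooled list, 27.7 (rank 107) in replicate 1 and 11.2 (rank 6355) in replicate 2. The region with TAATCC, 6377 bp downstream and 262 bp upstream of an internal transcript start, had a signal of 18.0 (rank 6254). It ranked 2102 in replicate 1, whose summit lay 2 bp away but had no complete TAATCC within 100 bp. Replicate 2 had no summit within 100 bp of it, but a region that shared bases with it (summit 222 bp away, rank 26775). Replicate 2 ranked another unc-76 region highest, near the start of the gene (signal 12.1, rank 4584), which was weak in the pooled list (signal 12.4, rank 21840).

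unc-53 (II, 11058047 to 11089456, minus strand), a cytoskeletal gene of the family of human NAV2, had 7 pooled regions, all intronic. The highest (II, 11088855 to 11089210) lay 423 bp downstream of the 5′ end, in an intron, and held TAATCC. Its signal was 26.0 (rank 874) in the pooled list, 7.66 (rank 19859) in replicate 1 and 13.4 (rank 2794) in replicate 2. It was the only 1 of the 4 regions with TAATCC that had the copy within 50 bp of the pooled summit. The next (signal 23.3, rank 1590), 9081 bp downstream, ranked 3605 in replicate 1 and 7848 in replicate 2.

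unc-34 (V, 982706 to 996914, plus strand), the gene of the Ena/VASP actin regulator, had 8 pooled regions, of which 4 were upstream. The highest (V, 996269 to 996624, signal 25.05, rank 1078) lay in the 3′ UTR, 13741 bp downstream of the 5′ end, and ranked 4081 in replicate 1. Replicate 2 had no summit within 100 bp of it, but a region that shared bases with it (summit 219 bp away, rank 14574). Replicate 2's highest region lay 2658 bp upstream (signal 15.1, rank 1451). The pooled region 219 bp upstream of the 5′ end had a signal of 11.1 (rank 28197). Its 4 upstream regions were each closer to the 5′ end of Y50D4C.12 than to that of unc-34.

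**Figure D2:**
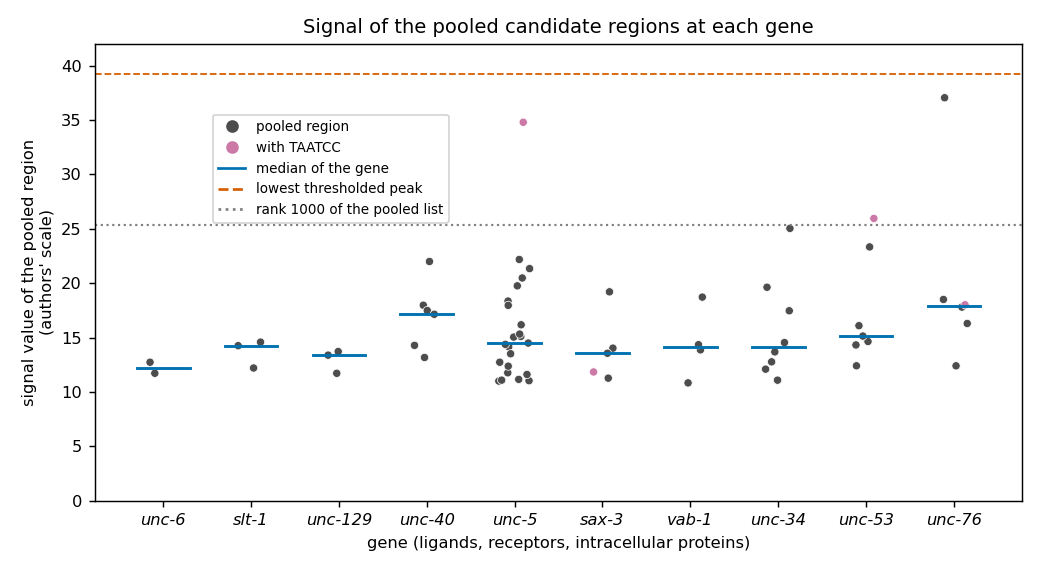
Signal of each pooled candidate region (authors' scale, axis from 0) at the 10 genes, with ligands, receptors and intracellular proteins from left to right. Points are regions, pink with TAATCC, blue lines are medians per gene, the dashed line is the lowest thresholded peak (39.2) and the dotted line the signal at rank 1000 (25.3). No point reaches the dashed line, and points in unc-5, unc-53 and unc-76 lie above the dotted one.

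Of the 10 genes, 3 reached the 1000 highest pooled regions, namely unc-76, unc-5 and unc-53, against 7.98% of all protein-coding genes. For 7 of 10 genes the window held a region among the 10000 highest, against 49.4% of all genes. The 10 genes are long, with a median length of 12.8 kb against 2.03 kb over all protein-coding genes, so their windows offer more room for a region. In replicate 1's own list the same 3 genes had a region among the 1000 highest (against 7.95% of all genes). For unc-53 it was another region, 20536 bp downstream of the 5′ end. In replicate 2's list none of the 10 did (against 7.85%), and its highest region at these genes, upstream of unc-34, ranked 1451. All 10 genes had a region in each of the 3 lists, against 71.1% of all genes for the 3 lists together, 84.5% for replicate 1 and 85.1% for replicate 2.

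The density of pooled regions was close to that of the genome. The 10 windows held 0.339 regions per kb (exact 95% Poisson interval 0.264 to 0.430, for counting error only), against 0.299 over the nuclear genome. Inside the genes it was 0.359 per kb (0.270 to 0.469), against 0.272 in all protein-coding genes. Upstream of the genes it was 0.280 per kb (0.153 to 0.470). These values rest on unc-5, a gene singled out after its values were seen. Without it the density inside the genes was 0.289 per kb (0.200 to 0.404) and over the windows 0.277 per kb (0.202 to 0.370).

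Per gene, the count per kb of gene was 0.715 in unc-76, 0.612 in unc-5, 0.600 in unc-40, 0.389 in unc-129, 0.333 in slt-1, 0.282 in unc-34, 0.223 in unc-53, 0.158 in vab-1, 0.143 in sax-3 and 0.134 in unc-6. By window the order changed, with unc-5 first at 0.610 per kb (interval 0.387 to 0.916) and unc-6 last at 0.160 (0.0194 to 0.579). The intervals of all 10 windows overlap, between 0.387 (the lower bound of unc-5) and 0.396 per kb (the upper bound of unc-53). In the 500 kb to each side of the unc-5 window the density was 0.386, and on chromosome IV 0.341. In replicate 1 the unc-5 window had 0.478 regions per kb against 0.351 around it, and in replicate 2 it had 0.610 against 0.360. The window also held 122 annotated piRNA genes, or 3.24 per kb, against 0.841 per kb on chromosome IV. Of the other windows, that of unc-129 held 1 and the rest none. The part of this piRNA-rich stretch in the unc-5 count was not tested.

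**Figure D3:**
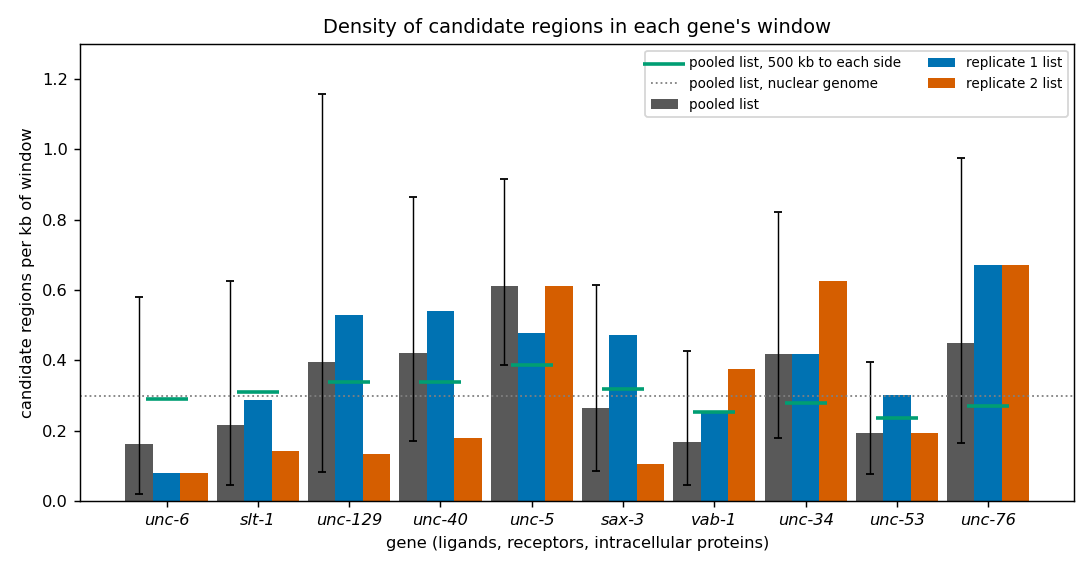
Candidate regions per kb of window for each gene, in the pooled list (grey, with exact 95% Poisson intervals) and in the lists of replicates 1 (blue) and 2 (orange). Green lines give the pooled density in the 500 kb to each side and the dotted line that of the nuclear genome (0.299). unc-5 has the highest pooled bar (0.610), and for unc-129, unc-40, sax-3, vab-1 and unc-53 the replicates fall on different sides of the dotted line.

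A pooled summit within 500 bp of the annotated 5′ end was found at unc-40, unc-53 and unc-34, or 3 of 10 genes, against 30.6% of all protein-coding genes. Introns held 48 regions, or 70.6% (95% Wilson interval 58.9 to 80.1), against 38.4% of all pooled regions. The rest were 14 intergenic regions (20.6% against 43.0%), 3 in coding exons (4.41% against 12.9%) and 3 in 3′ UTRs (4.41% against 4.19%). The windows were drawn around long genes, and the part of gene length in these shares was not tested.

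Support from both replicates, by summits within 100 bp, was near the share found elsewhere. A summit of both replicates lay within 100 bp for 11 of the 68 regions, or 16.2% (Wilson interval 9.28 to 26.7), against 14.4% of all pooled regions. Of these, 5 were in the window of unc-5, 2 in that of unc-53, 2 in that of unc-76, 1 in that of unc-40 and 1 in that of unc-34. Replicate 1 alone matched 28 regions (41.2% against 32.6%), replicate 2 alone 20 (29.4% against 31.7%) and neither 9 (13.2% against 21.3%). The 3 regions among the 1000 highest were all found in both, against 66.9% of the 1000 highest. The 5 genes with no region in both within 100 bp were unc-6, slt-1, unc-129, sax-3 and vab-1. They were also the genes with the fewest pooled regions, from 2 to 5 each. The share of all protein-coding genes with no such region was not computed, so this split is not read as a trait of the genes.

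**Figure D4:**
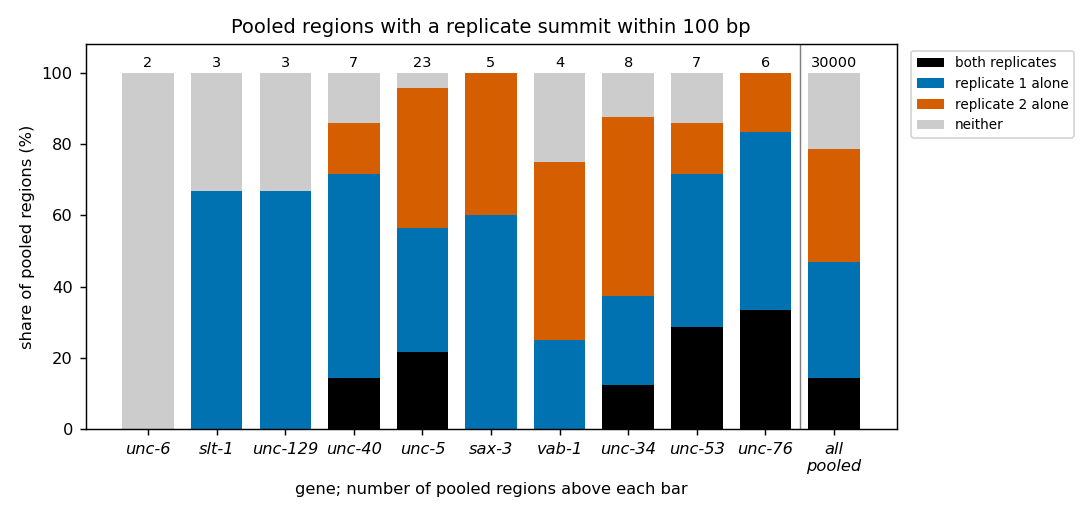
Share of each gene's pooled regions, in percent, with a summit within 100 bp in both replicates (black), replicate 1 alone (blue), replicate 2 alone (orange) or neither (grey). The number of regions stands above each bar, and the bar at the right gives all 30000 pooled regions, 14.4% of them in both. Black is present in unc-40, unc-5, unc-34, unc-53 and unc-76.

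TAATCC lay within 100 bp of the summit, on either strand, in 4 of 68 regions, or 5.88% (Wilson interval 2.31 to 14.2), against 7.18% of all pooled regions. In 4 of 10 genes the window held such a region, against 15.0% of all protein-coding genes, most of which are shorter. Of the 3 regions among the 1000 highest, 2 held TAATCC (unc-5 and unc-53), against 11.5% of the 1000 highest. The shorter core TAATC was in 16 regions (23.5% against 31.5%) and TAAT in 60 (88.2% against 90.1%). Both include every TAATCC copy. The 10 windows held 85 copies of TAATCC, 0.424 per kb against 0.366 per kb in the nuclear genome. Of these copies 4.71% were within 100 bp of a pooled summit, against 6.37% in the genome. Such stretches make up 6.79% of the bases of the windows and 6.01% of the genome.

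Other guidance genes were taken from a list of 58 names, of which 57 matched a single gene of the annotation. Of these, 54 had a pooled region, against 83.1% of all protein-coding genes. A region among the 1000 highest was found for 11 (19.3%), against 7.98% of all genes, with a median window of 12.5 kb against 7.03 kb over all genes. The genes efn-3, rpm-1 and pat-3 had no pooled region. In the replicates' own lists efn-3 had 3 regions in replicate 1 and 0 in replicate 2, and pat-3 had 1 in each. rpm-1 had 1 in each as well, at rank 4785 in replicate 1 and 7993 in replicate 2. plx-2, a plexin receptor for semaphorins, had the only thresholded peak of the list (1 of 57 genes, against 1.18% of all genes), with a signal of 50.5 (rank 56), 3040 bp upstream of its 5′ end, and ranks of 105 in replicate 1 and 169 in replicate 2. The next were max-1 (signal 31.9, rank 295), which acts in UNC-5 signalling, cle-1 (31.7, rank 303), of the collagen XVIII type, wve-1 (31.5, rank 308), of the WAVE actin regulator, and plx-1 (29.5, rank 408), a further plexin. The max-1 and wve-1 regions held TAATCC. Of these 4 regions only that of plx-1 had a summit of both replicates within 100 bp, at rank 21968 in replicate 1 and 160 in replicate 2. For wve-1, replicate 2's highest region (rank 137) had its summit at 11930254, just beyond 100 bp from the pooled summit at 11930135.

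For scale, unc-25 had 4 pooled regions in the same kind of window, the highest of rank 1707 (signal 23.1), and unc-47, the vesicular GABA transporter gene, had 3, the highest of rank 1836 (signal 22.8). unc-30 itself had none. Regions in unc-76, unc-5, unc-53 and unc-34 had a higher pooled signal than any at unc-25 or unc-47. The windows of these guidance genes are longer than those of unc-25 and unc-47. The share of all protein-coding genes with such a region was not computed, so this order is not read as a trait of the genes. In replicate 1, the highest region of unc-25 ranked 468 (signal 18.9), between those of unc-76 and unc-5. In replicate 2, the highest region of unc-25 ranked 12490 (signal 9.24), below the highest regions of unc-34, unc-5, unc-53, sax-3, unc-76 and unc-40 in that list. That of unc-47 ranked 5422 (signal 11.6) there, between those of unc-76 and unc-40.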

How the data were processed

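Each library was UNC-30 ChIP-seq of L1 larvae. The authors deposited, per the labels' file notes, ce11 lists of 30000 candidate regions (1 per replicate, 1 from both together) and 125 peaks past an irreproducible discovery rate threshold. For the caller, its settings, the aligner and the threshold, the value is not given in the sources used here. The ce10 lists were not used. In the deposited lists a signal value and a −log10 q-value accompany each region. Only the signal was used for ranks, since in the pooled list the −log10 q fell as signal rose (Spearman rho -0.79 over its 30000 regions). Library depth is unknown. Pooled regions are 356 bp wide, and replicate 2's have a median width of 380 bp.

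Genes came from the Ensembl release 115 annotation of WBcel235 and bases from the RefSeq sequence of that build. Shares have 95% Wilson and densities exact Poisson intervals, for counting error only. A match means summits within 100 bp, so a pooled region without a match can still share bases with a replicate's region. Motifs were searched on both strands within 100 bp of a summit. The genes named are all 10 members, each with its highest region in each list, the 5 of the further list with the highest signal, and unc-25, unc-47 and unc-30. Members and lists were chosen with earlier results of these data known. The counting was tested on simulated data. Python 3.11.15, pandas 2.3.3, scipy 1.17.1 and statsmodels 0.14.6 were used. The sequence of the unc-53 region is not reported here.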

Additional observations from a re-analysis of the deposited data

How the results depend on the processing

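The count of 10 genes with a region held with 2000 or 1000 bp upstream, in each replicate's list and with regions given to their nearest 5′ end; it was 7 with the 10000 highest regions and 0 with the thresholded peaks. The 68 regions became 26 with the 10000 highest, 0 with the thresholded peaks, 43 with the nearest 5′ end, and 69 to 79 with single replicates. Regions found in both replicates, 11 within 100 bp, numbered 7 within 50 bp and 17 within 200 bp. The shares of all pooled regions at 50 and 200 bp are not given here. By 1 shared base they numbered 28 of 68, against 31.5% of all pooled regions, so the members lay above that share by this rule. Regions with TAATCC, 4 in the main setting, numbered 1 within 50 bp (1.47% against 3.76% of all pooled regions). Within 200 bp they numbered 5 (7.35% against 13.5%). There were 16 with TAATC and 60 with TAAT. Replicate 1's list gave 5 of 79 regions and replicate 2's gave 7 of 69. The share over all regions of those 2 lists is not given here, so these counts are not read as a rise. Genes among the 1000 highest numbered 0 without replicate 1 and 3 without replicate 2. The density inside the genes was 0.339 to 0.359 per kb with single replicates and 0.339 over the windows. No paired analysis was possible because there is 1 group. Unknown depth limits what weak regions can show; the cause of these shifts was not tested.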

Other observations

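Each replicate had regions at the 10 genes with no pooled summit within 100 bp, though such a region can still share bases with a pooled one. Of replicate 1's 79 regions, 40 had no pooled summit within 100 bp, and of replicate 2's 69 regions, 38 had none. In replicate 1 the highest such region was in unc-53 (II, 11068742 to 11069097), with a signal of 16.9 and rank 843, 20536 bp downstream of the 5′ end and 3278 bp from the nearest pooled summit. In replicate 2 it was upstream of unc-34 (V, 979858 to 980237), with a signal of 15.1 and rank 1451, 220 bp from the nearest pooled summit. This region shared bases with the pooled region of that summit (V, 980090 to 980445).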
